A study of Mus musculus with 2 samples.

Results

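The genes described here are 10 transcription regulators of meiosis and of spermatids, taken by name from the 36547 genes of the count tables: the CRE factors Crem and Fhl5, the TBP family members Tbpl1 and Tbp, the RFX factors Rfx2 and Rfx3, the SOX factors Sox30 and Sox5, the MYB factor Mybl1 and the bromodomain protein Brdt. All 10 were found in both tables. They were followed through the germ cells of the testis in 1 library from wild-type (WT) C57BL/6 mice and 1 library from Alkbh5-/- (KO) mice of that strain, both aged 12 weeks. The KO animals were homozygous offspring of heterozygous parents, so ALKBH5, an enzyme that removes N6-methyladenosine from RNA, was missing in every cell type of the testis. The methods mention testes of 3 mice per genotype while the introduction describes 1 mouse each, and each library is 1 sample whichever holds. No test between genotypes was therefore possible, no p-value is given, and the 95% intervals below cover counting error only.

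Spermatogenesis depends on transcription programmes that follow each other in time. In spermatocytes MYBL1 and BRDT switch on meiotic genes. RFX2 and RFX3 drive genes of cilia and of the sperm tail. In round spermatids CREM, with its coactivator FHL5, drives genes that build the sperm head and tail. Transcription stops while the spermatid nucleus condenses, and many transcripts are stored there for later use. TBPL1, a relative of the TATA-binding protein TBP, and SOX30 are needed for spermatids to develop, and the short form of SOX5 is made in round spermatids.

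The WT table held 5756 barcodes with 80283221 unique molecular identifiers (UMIs, each standing for 1 captured transcript) and that of KO held 7012 barcodes with 82056760 UMIs, with medians of 10905.5 and 9117.5 UMIs per barcode. The barcode strings of 45 cells occurred in both libraries. Alkbh5 itself had 607 UMIs in WT and 5 in KO. Clustering without the 10 regulators and without the gene lists used below gave 16 clusters, of which 12 were germ cells and were numbered in the order of their marker stage. Cluster 1 was spermatogonia-like, 2 early spermatocyte-like, 3 and 4 late spermatocyte-like, 5 and 6 early round spermatid-like, 7 and 8 mid round spermatid-like, 9 and 10 late round and early elongating spermatid-like, and 11 and 12 condensing spermatid-like. They held 5585 WT and 5261 KO cells, from 64 WT cells in cluster 2 to 1008 in cluster 11, and cluster 12 held 577 WT but 154 KO cells. The other 4 clusters were Leydig-like, Sertoli-like, macrophage-like and endothelial-like. Levels are CPM, the UMIs of a gene summed over the cells of 1 cluster and library per 1000000 UMIs of those cells. Each log2 value compares KO with WT inside 1 cluster.

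In the WT library the regulators followed each other along the germ cell clusters. Mybl1, Tbp and Rfx2 were highest in cluster 4, Brdt in cluster 3, Tbpl1 in cluster 5, Crem in cluster 6, Sox5 in cluster 7, Sox30 in cluster 8, and Fhl5 and Rfx3 in cluster 9. In KO the highest cluster was the same for 7 of the 10. Of these 7, only Fhl5 and Sox5 had a highest cluster that exceeded the next beyond counting error in both libraries. For the other 3, Tbpl1, Rfx3 and Brdt, the highest cluster and the next in order did not differ beyond counting error in either library. Transcripts were concentrated to different degrees: cluster 7 held 35.1% of the CPM of Sox5 summed over the 12 clusters in WT and 35.7% in KO, while cluster 4 held 16.1% of that of Rfx2 in both libraries. The plot of shares by cluster shows where each gene was concentrated.

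**Figure D1:**
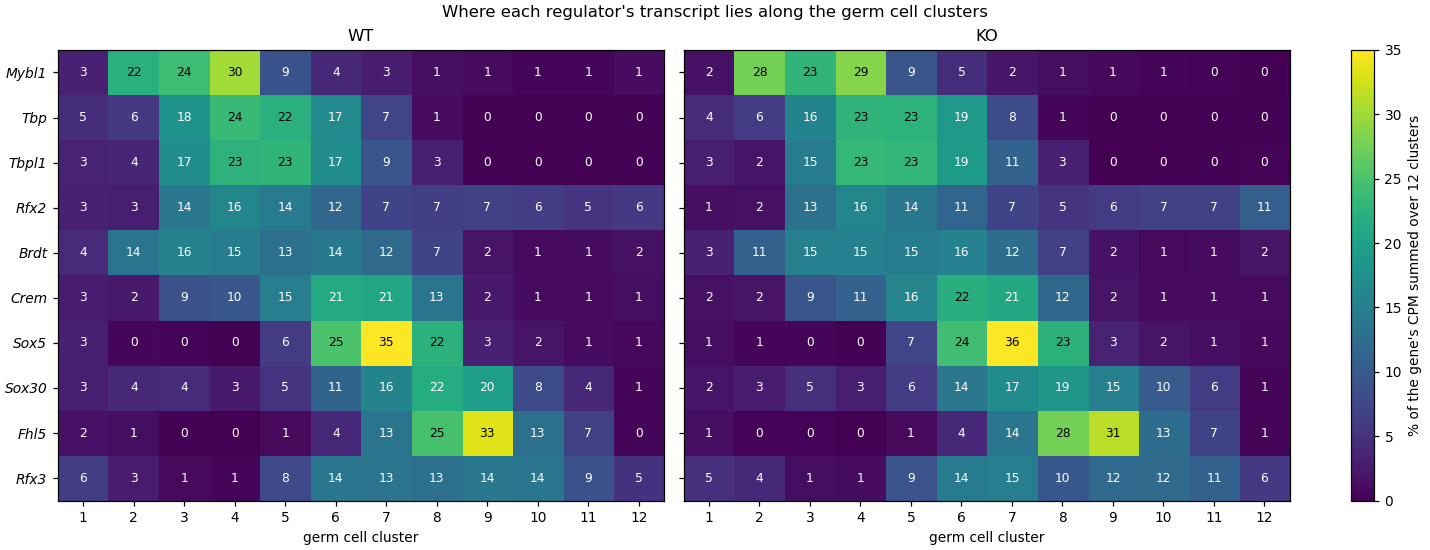
Share of each regulator's CPM that falls in each of the 12 germ cell clusters (x axis, numbered in marker stage order), in percent of the gene's CPM summed over clusters, for the WT library (left) and the KO library (right). The highest cluster moves from 4 for Mybl1 and Tbp to 9 for Fhl5 and is the same in both libraries for 7 of 10 genes.

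Crem (chr18:3266048-3337748, - strand, GENCODE vM21 on GRCm38) encodes the activator that turns on spermatid genes through the cAMP response element. Its CPM in clusters 1 to 12 were 103, 89.3, 319, 349, 548, 779.6, 754, 491, 89.7, 42.2, 37.1 and 47.2 in WT. The KO library had 53.5, 61.2, 309, 362, 524, 725, 698, 391, 62.6, 35.5, 35.3 and 34.5. Crem was thus already present in spermatocytes, was highest in the early and mid round spermatid-like clusters 6 and 7, which did not differ beyond counting error in WT, and was low from cluster 9 on. After every cell was thinned to 5729 UMIs, 98.2% of WT and 97.5% of KO cells of cluster 6 had a Crem UMI, against 28.7% and 16.2% of Leydig-like cells. Leydig-like cells had 132 CPM in WT and 48.9 in KO, above clusters 9 to 12 in WT and above clusters 10 to 12 in KO, so that the levels of these clusters are no higher than those of somatic cells.

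The KO level of Crem was below WT in 11 of 12 clusters, by small amounts where the gene was high. Among these, the intervals of clusters 3, 5, 11 and 12 included 0. At its peak the log2 ratio was -0.11 (95% interval -0.16 to -0.05) in cluster 6 and -0.11 (-0.16 to -0.07) in cluster 7. It was -0.33 (-0.40 to -0.25) in cluster 8 and -0.52 (-0.73 to -0.31) in cluster 9, where Crem was declining in both libraries. Cluster 4 was the exception at 0.05 (-0.04 to 0.15). Cluster 1 had the lowest ratio, -0.94 (-1.22 to -0.66), from 103 CPM in WT and 53.5 in KO.

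Fhl5 (chr4:25199908-25242876, - strand) encodes the LIM-domain coactivator that binds CREM in spermatids. WT clusters 1 to 12 had 96.6, 79.4, 12.00, 7.90, 52.9, 228, 779, 1446, 1937, 750.5, 394 and 28.6 CPM. KO clusters had 80.2, 17.8, 17.7, 2.80, 46.00, 215, 762, 1534, 1744, 697, 399.6 and 33.7 CPM. The gene was nearly silent in late spermatocyte-like cells, with 51 UMIs in cluster 4 of WT and 12 in KO, and had more CPM in each cluster from 5 to 9 than in the one before, so that WT cluster 9 stood 245 times above cluster 4. Without the barcodes called doublets, cluster 5 had 18.2 CPM in WT and 22.7 in KO, still more than cluster 4. The highest cluster, 9, exceeded cluster 8 beyond counting error in both libraries, by 0.42 (0.38 to 0.46) on the log2 scale in WT and 0.19 (0.14 to 0.23) in KO. Every cell of clusters 8 and 9 that could be thinned had an Fhl5 UMI, against 18.4% of WT and 8.08% of KO Leydig-like cells and 55.3% and 19.9% of Sertoli-like cells.

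Where Fhl5 was high the libraries differed little. The log2 ratio was -0.03 (-0.08 to 0.01) in cluster 7, 0.09 (0.05 to 0.12) in cluster 8 and -0.15 (-0.19 to -0.11) in cluster 9. The large ratios lay where it was low: -2.16 (-2.87 to -1.45) in cluster 2, from 40 UMIs in WT and 32 in KO, and -1.50 (-2.54 to -0.57) in cluster 4. In cluster 3 it was 0.56 (0.08 to 1.06), in the other direction. Without the barcodes called doublets it was 1.06 (0.32 to 1.84) there, from 23 UMIs in WT and 50 in KO, which is past 1.5 times. Leydig-like cells had 99.3 CPM of Fhl5 in WT and 43.7 in KO, and Sertoli-like cells 303 and 123, so the levels of clusters 1 to 4 were within the range found in somatic cells.

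The order of the activator and its coactivator was seen in the UMIs of Fhl5 per UMI of Crem, a ratio that is compared between clusters and not read as a ratio of molecules. It was 0.0226 (0.0168 to 0.0299) in cluster 4 of WT, 1.03 (1.003 to 1.06) in cluster 7 and 21.6 (19.7 to 23.7) in cluster 9. KO passed through 0.00771 (0.00398 to 0.0135), 1.09 (1.06 to 1.13) and 27.8 (24.8 to 31.4). At cluster 9 the KO interval lay above the WT interval, as it did at cluster 8, with 2.95 (2.84 to 3.06) in WT and 3.92 (3.75 to 4.09) in KO.

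The region before the RefSeq start of Fhl5 is shown because the gene had the widest range over the WT clusters of the 10. RefSeq windows on GRCm38.p6 were searched for 8 of the 10 regulators. Crem and Mybl1 had no window in this search, and whether one exists for them was not tested. The 250 bases before the start were searched on both strands for the CRE (TGACGTCA) and its short form contained in it (TGACG). Also sought were the X-box core (GTTGCC), the MYB core (AACNGNC), the SOX core (ACAAT) and the TATA box (TATAAA). Of all 32851 windows of that length, 1.55%, 17.8%, 10.4%, 27.7%, 27.7% and 12.4% held these letters. The window of Fhl5, chr4:25242853-25243102 (- strand), had a SOX core, in capitals, that began 43 bases before the start, and no CRE. A second annotated start of Fhl5 had none of the 6 motifs in its window.
Fhl5: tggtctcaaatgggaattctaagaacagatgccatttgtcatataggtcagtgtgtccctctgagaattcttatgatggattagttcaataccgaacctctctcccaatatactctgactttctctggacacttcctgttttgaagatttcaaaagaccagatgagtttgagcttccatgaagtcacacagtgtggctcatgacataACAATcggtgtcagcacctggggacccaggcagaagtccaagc

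**Figure D2:**
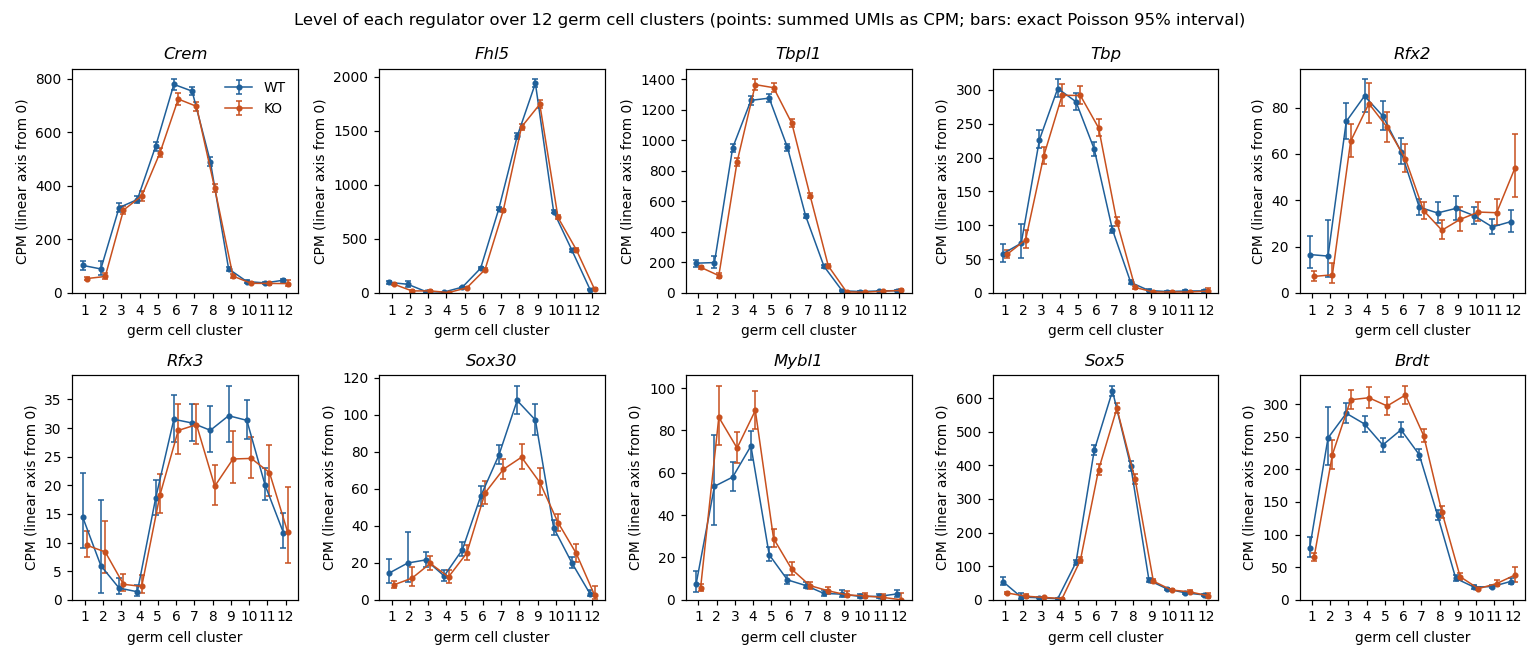
Level of each of the 10 regulators in CPM (y axis, linear, from 0) in the 12 germ cell clusters (x axis) of the WT library (blue) and the KO library (orange), with exact Poisson 95% intervals as bars. The curves of both libraries have the same shape for most genes, with KO below WT for Sox30 in clusters 8 and 9 and above WT for Tbpl1 and Brdt in clusters 5 to 7.

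Tbpl1 (chr10:22703879-22731938, - strand) encodes a TBP-like factor that does not bind the TATA box and is needed for spermatids to mature. Its WT levels in clusters 1 to 12 were 195, 198, 951, 1262, 1277, 954, 504, 174, 13.3, 8.65, 12.1 and 14.7 CPM. In KO they were 168, 113, 858, 1365, 1345, 1112, 638, 176, 5.88, 4.52, 10.9 and 16.00 CPM. It was highest in clusters 4 and 5, late spermatocyte-like and early round spermatid-like, and low from cluster 9 on. The KO level was lower in cluster 3, at -0.15 (-0.21 to -0.09), and higher from cluster 4 to cluster 7, with log2 ratios of 0.11 (0.06 to 0.16) in cluster 4, 0.08 (0.03 to 0.12) in cluster 5, 0.22 (0.17 to 0.27) in cluster 6 and 0.34 (0.29 to 0.39) in cluster 7, and 0.01 (-0.10 to 0.13) in cluster 8.

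In 3 low clusters KO had less Tbpl1 by 1.5 times or more. Cluster 2 had 198 CPM in WT and 113 in KO, a log2 ratio of -0.81 (-1.17 to -0.45). In cluster 9 the ratio was -1.18 (-1.87 to -0.53), from 71 and 28 UMIs, but without the barcodes called doublets 30 WT and 28 KO UMIs were left and the ratio was 0.00 (-0.79 to 0.80). Cluster 10 had -0.94 (-1.54 to -0.36), and -0.86 (-1.47 to -0.27) without doublets. Leydig-like cells had 109 CPM in WT and 64.2 in KO, above every value from cluster 9 on.

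Tbp (chr17:15499888-15528379, + strand) encodes the TATA-binding protein of the general transcription machinery. WT clusters 1 to 12 had 57.9, 73.4, 227, 302, 283, 212, 93.2, 15.4, 3.38, 1.92, 2.69 and 2.94 CPM. KO clusters had 57.2, 78.5, 203, 292, 292, 244, 105, 7.96, 1.26, 1.29, 1.31 and 2.53 CPM. The gene followed Tbpl1, with a Pearson correlation of log2(CPM + 1) over the 12 WT clusters of 0.98 (0.96 in KO), the highest of all 45 pairs among the 10 regulators in WT. The points share the library and its depth. Tbp ratios were 0.20 (0.10 to 0.30) in cluster 6 and 0.18 (0.05 to 0.30) in cluster 7, and -0.95 (-1.45 to -0.47) in cluster 8, where 113 WT and 53 KO UMIs remained. From cluster 9 on fewer than 50 UMIs were left over both libraries.

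The UMIs of Tbpl1 per UMI of Tbp stayed between 4.18 and 4.67 in clusters 3 to 6 of both libraries. In cluster 8 the ratio reached 11.3 (9.33 to 13.8) in WT and 22.1 (16.8 to 29.7) in KO, intervals that did not overlap. From cluster 7 to cluster 8 Tbp thus declined more than Tbpl1 in both libraries. The intervals were also apart in cluster 2, at 2.70 (1.84 to 4.06) and 1.44 (1.16 to 1.80), and in cluster 4. With every cell thinned to 5729 UMIs the log2 ratio of Tbp in cluster 8 was -0.27, which is under 1.5 times. In cluster 8, 28 of 359 WT and 10 of 371 KO cells were called doublets, and without them the Tbp ratio was -0.72 (-1.26 to -0.20).

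The windows of this pair are shown because their courses were the closest of the 10. The window of Tbpl1 was chr10:22731448-22731697 (- strand) and that of Tbp chr17:15499638-15499887 (+ strand). None of the 6 motifs was found in either, and so no capitals appear.
Tbpl1: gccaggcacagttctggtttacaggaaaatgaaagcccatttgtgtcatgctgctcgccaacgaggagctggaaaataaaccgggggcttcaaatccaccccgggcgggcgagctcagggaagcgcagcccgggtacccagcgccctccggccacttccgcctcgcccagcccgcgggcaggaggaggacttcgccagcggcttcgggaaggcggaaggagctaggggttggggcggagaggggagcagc
Tbp: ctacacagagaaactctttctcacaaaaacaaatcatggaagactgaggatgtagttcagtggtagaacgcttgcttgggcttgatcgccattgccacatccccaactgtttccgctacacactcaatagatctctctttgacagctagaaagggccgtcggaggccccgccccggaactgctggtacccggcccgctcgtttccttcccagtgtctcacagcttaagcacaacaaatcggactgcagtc

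Rfx2 (chr17:56775897-56831013, - strand) encodes an X-box binding factor that is required for spermatids to develop their tails. Its CPM in WT clusters 1 to 12 were 16.6, 15.9, 74.04, 85.1, 76.4, 61.03, 37.02, 34.5, 36.5, 33.4, 28.5 and 30.7. KO had 7.10, 7.79, 65.5, 81.8, 71.5, 57.9, 35.5, 27.1, 31.7, 34.9, 34.6 and 53.9. It was low in clusters 1 and 2, was highest in clusters 3 to 5, and then held a plateau from cluster 7 to the last cluster, so that the WT range from highest to lowest was 5.36 times, the narrowest of the 10. The ratio lay between -0.35 and 0.07 in clusters 3 to 10. In cluster 12, KO was higher, with 157 UMIs in WT, 64 in KO and a log2 ratio of 0.81 (0.37 to 1.24), in a cluster where the median of all 3739 genes compared was 0.19. In cluster 1, KO was lower at -1.22 (-1.94 to -0.46), from 24 and 53 UMIs.

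Rfx3 (chr19:27761721-28011166, - strand) encodes a relative known for its part in building cilia. WT clusters 1 to 12 had 14.5, 5.95, 2.03, 1.39, 17.7, 31.5, 30.9, 29.6, 32.2, 31.3, 20.02 and 11.7 CPM. KO clusters had 9.52, 8.35, 2.70, 2.33, 18.3, 29.6, 30.6, 19.8, 24.6, 24.7, 22.2 and 11.8 CPM. In late spermatocyte-like cells it was close to absent, with 10 and 9 UMIs in WT clusters 3 and 4, and from cluster 6 to cluster 10 it was even, none of the neighbours in the WT order differing beyond counting error there. KO was lower in the last part of that range, with log2 ratios of -0.58 (-0.90 to -0.26) in cluster 8, -0.39 (-0.74 to -0.04) in cluster 9 and -0.34 (-0.61 to -0.08) in cluster 10. The cluster 8 value is just under 1.5 times, and without doublets, at -0.59 (-0.92 to -0.26), it is just over.

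The UMIs of the RFX pair drew closer after meiosis. Rfx2 had 61.0 (31.9 to 134) UMIs per UMI of Rfx3 in cluster 4 of WT and 35.1 (18.9 to 73.8) in KO. By cluster 7 the ratio was 1.20 (1.04 to 1.38) and 1.16 (0.992 to 1.36). In cluster 10 it was 1.06 (0.912 to 1.24) in WT and 1.41 (1.17 to 1.71) in KO. It was larger again in cluster 12, at 2.62 (1.93 to 3.58) in WT and 4.57 (2.54 to 8.83) in KO. The intervals of the libraries overlapped in all 12 clusters.

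The windows of both are shown because their courses parted most within a family. Rfx2, chr17:56831009-56831258 (- strand), had an X-box core that began 116 bases before the start, a short CRE at 224 and a MYB core at 177 and at 153. Rfx3, chr19:28011167-28011416 (- strand), had a MYB core at 169 and no X-box core. Capitals mark these matches, which describe letters and not binding.
Rfx2: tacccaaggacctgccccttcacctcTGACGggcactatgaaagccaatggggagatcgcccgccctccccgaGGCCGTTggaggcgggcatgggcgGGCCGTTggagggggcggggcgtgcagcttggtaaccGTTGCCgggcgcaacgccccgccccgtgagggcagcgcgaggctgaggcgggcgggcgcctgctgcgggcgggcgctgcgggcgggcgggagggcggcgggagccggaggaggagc
Rfx3: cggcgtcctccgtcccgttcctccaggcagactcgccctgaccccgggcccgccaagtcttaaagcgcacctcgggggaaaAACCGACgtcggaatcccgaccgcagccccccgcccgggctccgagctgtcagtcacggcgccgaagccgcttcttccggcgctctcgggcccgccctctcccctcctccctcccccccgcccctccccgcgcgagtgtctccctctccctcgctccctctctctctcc

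**Figure D3:**
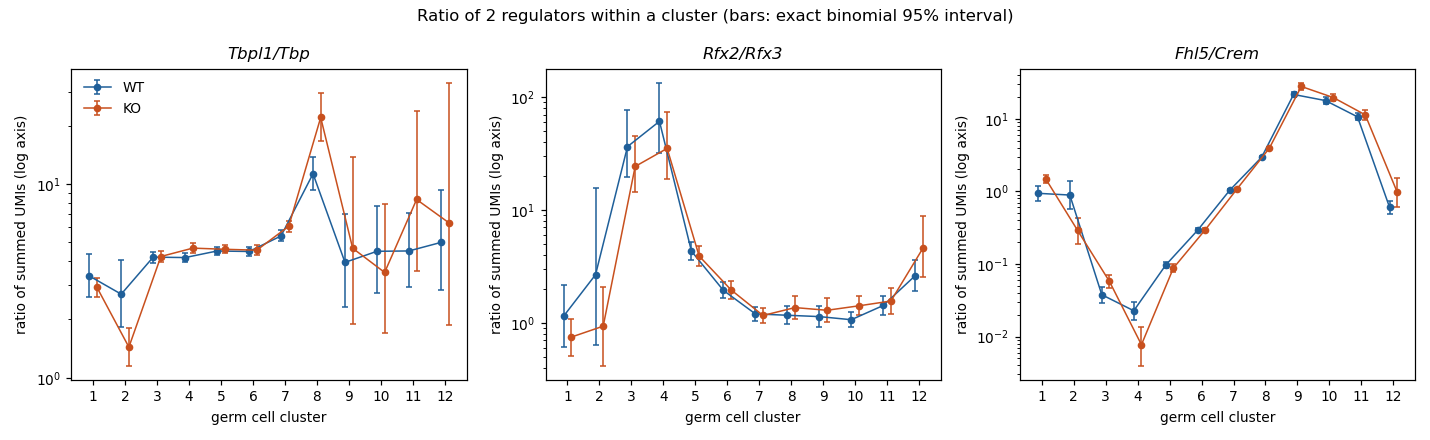
UMIs of the first gene per UMI of the second (y axis, log scale) in the 12 germ cell clusters (x axis) for Tbpl1 and Tbp, Rfx2 and Rfx3, and Fhl5 and Crem, in WT (blue) and KO (orange), with exact binomial 95% intervals as bars. The Tbpl1 to Tbp ratio of cluster 8 is 11.3 in WT and 22.1 in KO, and the Fhl5 to Crem ratio climbs from cluster 4 to cluster 9 in both.

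Sox30 (chr11:45980310-46017994, + strand) encodes a factor without which round spermatids do not go on. WT clusters 1 to 12 had 14.5, 19.8, 21.6, 12.9, 27.1, 55.9, 78.2, 108, 97.2, 38.9, 19.9 and 3.13 CPM. KO clusters had 8.04, 11.7, 19.7, 12.3, 25.2, 57.7, 70.5, 77.1, 63.5, 41.8, 25.04 and 2.53 CPM. The gene was low in spermatocytes, was higher in each round spermatid-like cluster than in the one before, and peaked in clusters 8 and 9, which did not differ beyond counting error in WT. At that peak KO was lower: the log2 ratio was -0.48 (-0.65 to -0.32) in cluster 8 and -0.61 (-0.82 to -0.41) in cluster 9. Cluster 7 had a smaller ratio of -0.15 (-0.29 to -0.01), and those of cluster 6, 0.04 (-0.16 to 0.25), and cluster 10, 0.10 (-0.11 to 0.32), had intervals that included 0. Mid round spermatid markers were lower in KO too in cluster 8, 15 of 15 of them, with 14337 CPM in WT and 12485 in KO, while in cluster 9 their sums were 1758 and 1743, and their part was not tested. Without doublets the cluster 9 ratio was -0.64 (-0.85 to -0.43). After thinning, 41.9% of WT and 30.4% of KO cells of cluster 9 had a Sox30 UMI, against 2.30% and 2.42% of Leydig-like cells.

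Sox5 (chr6:143828425-144781977, - strand) is best known from cartilage, and a short form of its protein is made in spermatids. It overlaps Sox5it on its own strand, with 1375 UMIs over both libraries, and Sox5os3 on the other, with 13523. Its WT levels in clusters 1 to 12 were 53.8, 7.94, 5.90, 3.25, 111, 444, 621, 398, 57.9, 32.1, 20.4 and 14.5 CPM. KO had 19.97, 10.6, 6.94, 3.49, 117, 387, 569, 358, 55.3, 28.8, 23.5 and 11.8 CPM. The gene went from near absence in cluster 4 to its peak in cluster 7, 191 times higher in WT, and was down again by cluster 9. Cluster 7 stood above the next cluster beyond counting error in both libraries. The KO level at the peak was slightly lower, at -0.20 (-0.28 to -0.12) in cluster 6, -0.13 (-0.18 to -0.08) in cluster 7 and -0.15 (-0.23 to -0.07) in cluster 8. Cluster 1 had -1.43 (-1.83 to -1.02).

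Mybl1 (chr1:9667415-9700209, - strand) encodes A-MYB, which switches on meiotic genes and the precursors of pachytene piRNAs. WT clusters 1 to 12 had 7.59, 53.6, 57.97, 72.7, 21.3, 9.39, 6.73, 3.001, 2.63, 1.54, 1.59 and 2.74 CPM. KO clusters had 5.50, 86.2, 71.7, 89.5, 28.9, 14.4, 6.67, 4.21, 2.31, 1.81, 1.09 and 0 CPM. It was confined in the main to clusters 2 to 4. Among the 10 it had the largest ratio of mean levels, with a mean over the 12 clusters of 20.1 CPM in WT and 26.0 in KO and a log2 ratio of 0.38. KO was higher in clusters 2 to 6, by 0.69 (0.09 to 1.33), 0.31 (0.08 to 0.53), 0.30 (0.10 to 0.50), 0.44 (0.13 to 0.76) and 0.62 (0.15 to 1.09). All 5 intervals lay above 0, and clusters 2 and 6 were past 1.5 times. Early spermatocyte markers moved with it: 1 of 15 were lower in KO in cluster 3, the list summing to 1512 CPM in WT and 2326 in KO, and their part in the Mybl1 ratio was not tested. In cluster 2 these markers summed to 8614 and 9512 CPM.

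Brdt (chr5:107331159-107387058, + strand) encodes a bromodomain protein of the testis that binds acetylated histones in spermatocytes and spermatids. WT clusters 1 to 12 had 80.01, 248, 286, 269.6, 237, 261, 222, 129.7, 32.7, 19.4, 20.2 and 27.98 CPM. KO clusters had 65.8, 223, 307, 309.8, 297, 314, 252, 135, 35.3, 17.1, 24.8 and 37.9 CPM. It formed a plateau from cluster 2 to cluster 7 and was low from cluster 9 on. KO was higher in the later part of the plateau, with ratios of 0.20 (0.10 to 0.30) in cluster 4, 0.32 (0.23 to 0.42) in cluster 5, 0.27 (0.18 to 0.36) in cluster 6 and 0.18 (0.10 to 0.26) in cluster 7. None reached 1.5 times. In its earlier part the intervals included 0, at -0.16 (-0.45 to 0.14) in cluster 2 and 0.10 (0.00 to 0.21) in cluster 3. Early spermatocyte markers were higher in KO in clusters 4 to 7 too, with log2 ratios of 0.10, 0.43, 0.27 and 0.14 for their sum. Their part was not tested.

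To count differences, a regulator was called higher or lower in a cluster when its CPM differed at least 1.5 times between the libraries and it had at least 50 UMIs over both, which held for 104 of 120 pairs of a regulator and a cluster. Of these, 3 pairs were higher in KO, or 2.88%, against 11.6% of all gene and cluster pairs. Lower in KO were 12 pairs, or 11.5%, against 8.75%. The median log2 ratio was -0.07 over the 104 pairs and 0.03 over all 99995 pairs. The share of lower calls was close to that of all genes, while the share of higher calls was below that of all genes. With 1 library per genotype and few regulators, no direction particular to them is read from these shares.

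The 12 lower calls lay in 6 clusters. In cluster 1, 5 of 10 regulators were lower (14.3% of all genes) and 0 higher (11.2%). In cluster 2, 2 of 6 with enough UMIs were lower (12.8%) and 1 higher (11.1%), and in cluster 4, 1 of 8 was lower (7.61%) and 0 higher (4.62%). Cluster 8 had 1 of 10 lower (9.45%) and 0 higher (13.2%), cluster 9 had 2 of 8 lower (7.68%) and 0 higher (13.3%), and cluster 10 had 1 of 8 lower (7.34%) and 0 higher (16.3%).

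Clusters 3, 5, 6, 7, 11 and 12 had no lower call, against 6.69%, 6.62%, 7.55%, 8.06%, 9.25% and 8.21% of all genes. Higher calls were 1 of 10 in cluster 6 (8.59%), which was Mybl1, and 1 of 7 in cluster 12 (23.6%), which was Rfx2. Clusters 3, 5, 7 and 11 had 0 higher, against 9.88%, 7.40%, 12.6% and 16.7%. In the clusters where a regulator was highest in WT, log2 ratios ran from -0.48 for Sox30 to 0.30 for Mybl1, and none was called.

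**Figure D4:**
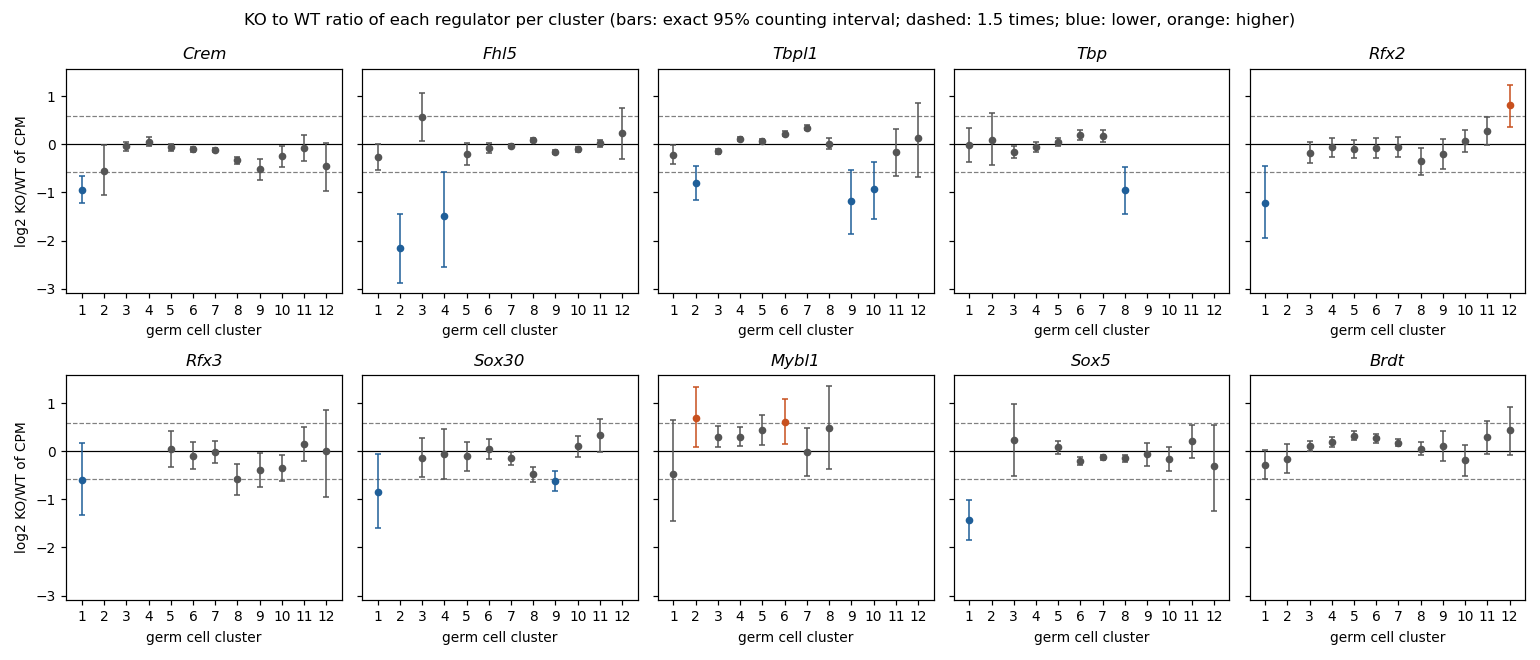
Log2 KO/WT ratio of CPM (y axis) of each regulator in each germ cell cluster (x axis) with at least 50 UMIs over both libraries, with exact 95% counting intervals as bars. Dashed lines mark 1.5 times in each direction. The 12 blue points are lower and the 3 orange points higher than that, and the blue points lie in clusters 1, 2, 4, 8, 9 and 10.

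In cluster 1, the spermatogonia-like cells, the median log2 ratio with doublets kept was -0.54 over the 10 regulators. Over all 10627 genes compared there it was 0.03. The regulators called lower were Crem, Rfx2, Rfx3, Sox30 and Sox5, where 14.3% of all genes were lower. Rfx3 rested on 21 and 71 UMIs, and its interval of -1.33 to 0.17 includes 0. Transcripts of later stages were lower there too. Mid round spermatid markers summed to 1632 CPM in WT and 570.2 in KO, 15 of 15 of them lower in KO, and early round spermatid markers to 1395 and 757, 14 of 14 lower. Condensing spermatid markers summed to 3136 and 2016, 14 of 14 lower, late spermatocyte markers to 2392 and 1611, 12 of 15 lower, and late round and early elongating spermatid markers to 3045 and 2894, 8 of 15 lower. The markers of spermatogonia themselves summed to 1860.3 in WT and 2369 in KO. Their part in the 5 calls was not tested.

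Barcodes called doublets made up 15.1% of the WT and 10.6% of the KO cells of cluster 1. Without them Crem was at -0.64 (-1.09 to -0.16), from 45.6 and 29.3 CPM, and Sox5 at -0.59 (-1.53 to 0.47), from 12 and 45 UMIs where 78 and 149 had been counted. Rfx3 was at -0.83 (-1.64 to 0.05), from 17 and 54 UMIs. Rfx2 at -2.11 and Sox30 at -1.25 then had too few UMIs for a call. Fhl5 was at -0.68 (-1.14 to -0.20). Brdt, at 0.00 (-0.38 to 0.40), and Tbpl1, at -0.05 (-0.30 to 0.21), had ratios near 0, and Tbp turned from -0.02 to 0.14 (-0.29 to 0.58).

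In cluster 2 the lower calls, Fhl5 and Tbpl1, stood beside late round and early elongating spermatid markers that summed to 2378 CPM in WT and 717 in KO, 14 of 15 lower, and condensing spermatid markers of 2763 and 1174, 14 of 14 lower. Late spermatocyte markers there summed to 2014 and 1079.96, 13 of 15 lower. In cluster 4, where Fhl5 was lower, the late round list summed to 297 and 171 CPM, 13 of 15 lower, and in cluster 3, where Fhl5 was higher, to 327 and 422, 3 of 15 lower. In cluster 3 the condensing spermatid markers went the other way from Fhl5, 14 of 14 lower in KO. The part of later-stage transcripts in these ratios was not tested.

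**Figure D5:**
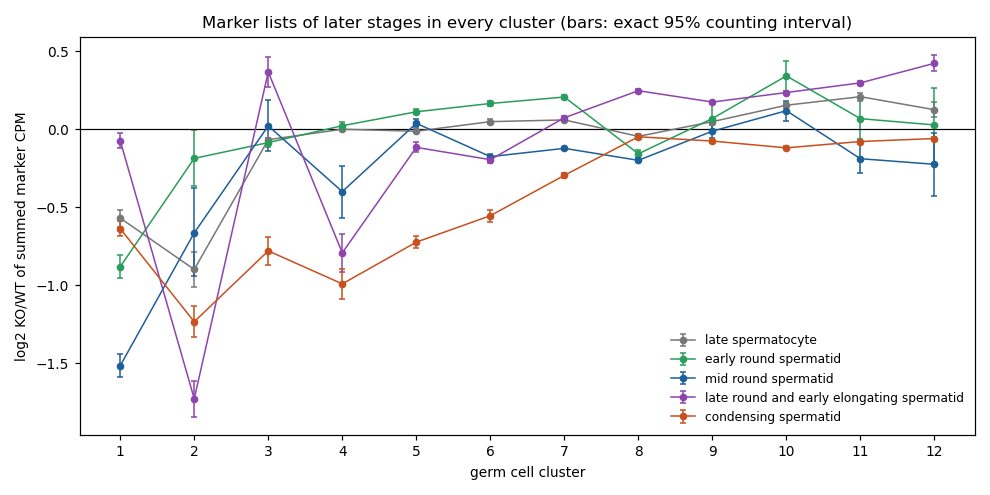
Log2 KO/WT ratio (y axis) of the summed CPM of 5 marker lists in the 12 germ cell clusters (x axis), with exact 95% counting intervals as bars. The condensing spermatid list (orange) lies between -1.23 and -0.30 in clusters 1 to 7 and near 0 from cluster 8 on.

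Genes known to depend on CREM after meiosis (Tnp1, Tnp2, Prm1, Prm2, Odf1, Smcp, Camk4 and Ace), some of which package sperm DNA or belong to the sperm tail, gave 92 pairs with enough UMIs. Of these 33 were lower in KO (35.9%, against 8.75% of all pairs) and 1 higher (1.09%, against 11.6%). Their median log2 ratio was -0.34 (0.03 over all pairs). The lower pairs lay in clusters 1 to 7 and 12. In clusters 8 to 11, 0 of 32 were lower, against 9.45%, 7.68%, 7.34% and 9.25% of all genes. In cluster 12, where Prm2, Odf1, Smcp and Ace were highest in WT, 3 of 8 were lower, against 8.21%. Prm1, a protamine gene, had 14572 CPM in WT and 3361 in KO in cluster 2 and 8402 and 3814 in cluster 7. In its highest cluster, 11, it had 180849 and 161416, a log2 ratio of -0.16 (-0.17 to -0.16). Condensing spermatid markers, which are other genes, were lower in KO for 14 of 14 in each of clusters 1 to 7, and their part was not tested. In the last cluster, 12, Prm1 was at -0.79 (-0.80 to -0.78), Tnp1, a transition protein gene, at -0.92 (-1.06 to -0.78), Tnp2 at -0.59 (-0.66 to -0.51) and Odf1, an outer dense fibre gene, at 0.59 (0.50 to 0.69). Camk4, a kinase gene of round spermatids that was highest in cluster 7, had 148 CPM in WT and 115 in KO there, a log2 ratio of -0.36 (-0.47 to -0.26).

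Of the cilium and axoneme genes of the RFX programme, 17 of 18 were in the tables and gave 184 pairs, 16 lower (8.70%, against 8.75% of all pairs) and 7 higher (3.80%, against 11.6%), with a median of -0.03. In cluster 1, 8 of 17 were lower, where 14.3% of all genes were, among them the tektin gene Tekt2, with 117 CPM in WT and 48.1 in KO and a log2 ratio of -1.29 (-1.55 to -1.01). In clusters 3 to 6 none was called. At their highest WT clusters the 3 most abundant members had ratios within 1.5 times: Meig1, needed for the manchette of spermatids, had 7261 and 6621 CPM, at -0.13 (-0.15 to -0.11), Rsph1, a radial spoke gene, 2003 and 1979, at -0.02 (-0.06 to 0.02), and Ift172, an intraflagellar transport gene, 1469 and 1244, at -0.24 (-0.32 to -0.16). Of the genes of the piRNA pathway that depend on MYBL1, 11 of 12 were in the tables and gave 90 pairs, 6 higher (6.67%, against 11.6% of all pairs) and 2 lower (2.22%, against 8.75%), with a median of 0.15. Piwil1, which binds pachytene piRNAs, had 219.9 CPM in WT and 262 in KO in cluster 3, at 0.25 (0.14 to 0.37), and Ddx4, a germ cell RNA helicase gene, was at 0.16 (0.08 to 0.24) in cluster 4. Other members were lower in KO at their highest WT cluster: Tdrd9 was at -0.62 (-1.03 to -0.20), Mov10l1 at -0.55 (-0.84 to -0.24) and Henmt1 at -0.26 (-0.52 to -0.01). Elsewhere Mov10l1 was called higher in cluster 5, at 0.60 (0.06 to 1.14), and Henmt1 in cluster 1, at 1.10 (0.42 to 1.86). Tdrd6 was called lower in cluster 1, at -0.94 (-1.46 to -0.40). Mael was higher in KO in clusters 10 and 11, at 0.70 (0.64 to 0.76) and 1.58 (1.44 to 1.73).

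Partners of the regulators in general transcription gave 92 pairs, 10 higher (10.9%, against 11.6% of all pairs) and 3 lower (3.26%, against 8.75%), with a median of 0.08. Gtf2a1l, the germ cell subunit of TFIIA that binds TBP and TBPL1, was highest in cluster 4 in both libraries, with 625 CPM in WT and 502 in KO, at -0.32 (-0.39 to -0.24). It was lower in KO in cluster 3, at -0.69 (-0.79 to -0.59), and higher in cluster 10, at 0.78 (0.57 to 1.00). Taf7, a TFIID subunit gene, was higher in clusters 3, 7 and 8, and its germ cell relative Taf7l in clusters 5 and 6. Taf7l was at 0.72 (0.41 to 1.03) and 0.74 (0.48 to 0.99) there, and at its highest cluster, 2, at 0.50 (0.34 to 0.67). Gtf2a2, the gene of the small TFIIA subunit, had 734 CPM in WT and 703 in KO at its highest WT cluster, a log2 ratio of -0.06 (-0.12 to -0.01).

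For each regulator the genes with the most similar course over the 12 WT clusters were sought among 11814 genes with at least 200 UMIs in WT germ cells. Tbpl1 was closest to Dynlt1f, Supt20 and Suclg1, with Pearson correlations of 0.996, 0.995 and 0.995 over 12 clusters, and 0.980, 0.981 and 0.996 in KO. Tbp was closest to Zfp646, Lztfl1 and Fahd2a, each at 0.994, and Sox5 to 1700113H08Rik, Adam39 and 4930563J15Rik, each at 0.991. Fhl5 was closest to 1700066B17Rik (0.988), Cypt12 (0.984) and Aknad1 (0.984), and Crem to Jhy (0.983), Efhb (0.982) and Gm28453 (0.981). Among the genes closest to Mybl1 were Exd1 (0.984) and Fam160b2 (0.981), and Brdt was closest to Sugp2 (0.987), Wfdc15a (0.986) and Drc3 (0.986), and Rfx3 to Tmod2 (0.987), Zfp474 (0.986) and Tmco5 (0.984). Rfx2 was closest to AI429214 (0.984), Wdr20rt (0.979) and Rcor3 (0.978). Sox30 had the least close relatives, Gfer at 0.941, Zfp37 at 0.933 and Uck2 at 0.929. In KO the correlations of the most similar genes ran from 0.857, for Brdt and Drc3, to 0.998, for Tbp and Lztfl1, and those of Rfx2 with the 3 genes were 0.859, 0.933 and 0.888. The clusters share 1 library, so these values describe its courses.

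The regulators also had UMIs in somatic cells, of which WT had few, with 94 Leydig-like cells in WT against 1168 in KO. The share of all genes that differed was computed for germ cell clusters only, so no count of regulators is given here. Sertoli-like cells had 303 (257 to 355) CPM of Fhl5 in WT and 123 (114 to 134) in KO, and macrophage-like cells 909 (805 to 1022) and 323 (284 to 367). Condensing spermatid markers in Sertoli-like cells summed to 17220.2 CPM in WT and 3796 in KO. Leydig-like cells had 80.97 (64.6 to 100.2) CPM of Sox5 in WT and 19.4 (16.8 to 22.3) in KO, while mid round spermatid markers there summed to 1886 and 389. Mybl1 went the other way in Sertoli-like cells, with 9.97 (3.24 to 23.3) and 32.1 (27.2 to 37.6) CPM. Whether these UMIs were made by the somatic cells or came from germ cells was not tested.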

How the data were processed

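Testis cells of 1 WT and 1 Alkbh5-/- library were measured with the GEXSCOPE kit. According to the methods, the authors took barcode and UMI from read 1, aligned read 2 and counted UMIs per gene, and the deposited values are these UMI counts without normalization. The submitters' processing notes name FastQC 0.11.7, STAR 2.5.3a, featureCounts 1.6.2, fastp and Seurat. The methods name GRCh38, a human build, while the tables hold mouse symbols. Whether strand was used in counting is not given in the sources used here. The tables listed 32162 WT and 34994 KO genes, and a gene in only 1 of them was taken as 0 in the other. The study reports fewer cells than the barcodes deposited, though all of these have over 500 genes.

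Cells were integrated and clustered in Seurat 5.3.0 (R 4.3.3) with the study's settings of over 500 genes, 2000 variable features, 20 anchor dimensions and resolution 0.3, with 30 components and seed 1, and with the regulators and listed genes removed from the features. A cluster was named X-like from at least 3 detected markers, some of them markers that the study chose on these same cells. Scrublet (scanpy 1.11.5, expected rate 0.06) called 244 WT and 345 KO barcodes doublets, which were kept. Sums, exact Poisson and conditional intervals (95%) and ratios were computed in Python 3.11.15 with scipy 1.17.1 and checked on simulated data. The genes named are the regulators, the listed genes called in a cluster or among the 3 with most UMIs in their list, the 3 genes most similar to each regulator, and Alkbh5, apart from a few genes that are not reported here. Regulators and lists were chosen with earlier results of these data known. Positions are from GENCODE vM21 on GRCm38 and windows from RefSeq on GRCm38.p6. Alternatives were resolution 0.8, listed genes among the features, 1000 genes per cell, doublets removed, totals without mitochondrial and ribosomal protein genes, thinned cells, means per cell, pooled clusters, a fold of 2, a minimum of 20 UMIs or none, and centred ratios. A UMI is 1 molecule only as far as its sequence was read without error, which the intervals do not cover.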

Additional observations from a re-analysis of the deposited data

Results flagged for a closer look

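For 4 regulators the KO to WT ratio pointed in opposite directions in different germ cell clusters, with counting intervals that excluded 0 on both sides. The differences were not tested, since each genotype has 1 library.

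Fhl5, the coactivator of CREM, was at 0.56 on the log2 scale in cluster 3 and at -2.16 in cluster 2, 2.72 apart. Tbpl1 was at 0.34 in cluster 7 and at -1.18 in cluster 9, 1.52 apart, and the cluster 9 value was 0.00 without doublets. Tbp was at 0.20 in cluster 6 and at -0.95 in cluster 8, 1.15 apart. Rfx2 was at 0.81 in cluster 12 and at -1.22 in cluster 1, 2.03 apart, and cluster 1 had 30 Rfx2 UMIs left over both libraries without doublets.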

How the results depend on the processing

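The share of regulator and cluster pairs higher in KO, 2.88% of 104, was 5.21% with the regulators and listed genes among the clustering features, 1.12% with thinned cells, 1.56% with clusters of 1 class pooled and 0% at 2 times. The share lower in KO, 11.5%, was 6.74% with thinned cells and 4.81% at 2 times. The other 34 values of these shares, of the count of highest clusters shared by both libraries and of the median size of the ratios were within 1.5 times of the reported ones. The direction turned for the mean of the log2 ratios of Fhl5 over clusters with thinned cells, to 0.014 from -0.30, and for Tbpl1 in cluster 9 without doublets, to 0.0028 from -1.18. Without doublets it also turned for ratios that were not called, those of Tbp and Brdt in cluster 1, Fhl5, Tbp and Sox30 in cluster 5 and Sox30 in cluster 4, of which Fhl5 moved furthest, from -0.20 to 0.32. The same mean turned for Rfx2 without doublets, to 0.02 from -0.10, and for Tbp with thinned cells, to 0.10 from -0.08. The causes were not tested. Of the 15 called pairs, 10 were still called with thinned cells, 14 without doublets where the UMI minimum was not applied again, and 12 with means per cell. Depth limits the clusters with few UMIs: cluster 2 of WT held 64 cells, and pairs under 50 UMIs were not called. No paired analysis was possible because each genotype has 1 library, and for the same reason no library could be left out.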

Other observations

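Relatives of the regulators were counted in the same way, and Tbpl2, Myb, Sox13, Rfx5 and Fhl2 had too few UMIs for a call in any cluster. Of 19 paralogs, 102 pairs had enough UMIs, 7 higher in KO (6.86%, against 11.6% of all gene and cluster pairs) and 8 lower (7.84%, against 8.75%), with a median log2 ratio of 0.03. Fhl4, the relative of Fhl5 with most UMIs, had 2716 CPM in WT and 2787 in KO at its highest WT cluster, at 0.04 (0.00 to 0.07), and was lower in KO in clusters 1 and 2. Rfx8, a little studied RFX factor, was highest in cluster 4, with 237 CPM in WT and 219 in KO, at -0.11 (-0.23 to 0.01). Among the ubiquitous bromodomain genes, Brd2 was lower in KO in clusters 9, 10 and 11, at -0.61 (-0.98 to -0.26), -0.80 (-1.09 to -0.50) and -0.69 (-1.07 to -0.34). Brd3 was at 0.32 (0.21 to 0.44) in cluster 4, its highest. Sox6, the relative of Sox5, was highest in cluster 7 as Sox5 was, with 131 CPM in WT and 135 in KO, at 0.04 (-0.07 to 0.14).

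Other regulators of meiosis and spermatids gave 87 pairs, 4 higher (4.60%, against 11.6%) and 8 lower (9.20%, against 8.75%), with a median of -0.02. Sohlh1, which drives the differentiation of spermatogonia, was higher in KO in cluster 1, with 57.9 and 111 CPM and a ratio of 0.94 (0.62 to 1.28), and Sohlh2 was at 0.72 (0.29 to 1.18). Ovol2, highest in cluster 4, was lower in KO in clusters 1, 3 and 8, at -0.71 (-0.89 to -0.53) in cluster 3. Cdyl, a chromodomain gene highest in cluster 9, had 1074 CPM in WT and 1045 in KO there, at -0.04 (-0.09 to 0.02).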
